A study of Mus musculus with 8 samples.

Results

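The genes described here encode the acid hydrolases of the lysosome and the proteins they work with. They were chosen by a list of gene symbols, with no measured value in the rule. The list and its role groups were drawn up with earlier results of these data known, so the shares below are descriptions. The list holds 34 genes of the 35906 in the gene table built from the deposited counts. All 34 were found in both deposited kinds of table, and all 34 passed the filter on low counts. The RNA came from liver macrophages of BALB/c WT mice, isolated by flow sorting. There were 4 libraries from mice given CCl4 (carbon tetrachloride, a liver toxin used to produce fibrosis) and 4 from mice given the vehicle control. All 8 libraries share the BALB/c WT genotype, the tissue and the sort for live cells with the leukocyte antigen CD45 and the macrophage antigen F4/80, and the series' design text adds that the cells lacked the endothelial antigen CD31. The dose, the length of treatment, and the age and sex of the mice are not stated by the labels. Nothing in them says that each library came from a separate mouse, so the p-values measure the spread between these libraries, which may in part be technical.

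Lysosomal hydrolases are made in the endoplasmic reticulum, tagged in the Golgi apparatus with mannose-6-phosphate and carried by receptors to the acidic lysosome, where they take apart glycosaminoglycans, glycoproteins, glycolipids, lipid esters and proteins. Several need a partner, such as the saposins and the GM2 activator, which present lipids to their enzymes, and loss of a single enzyme or partner causes a lysosomal storage disease. Macrophages take up dead cells, lipoproteins and matrix, and are among the cells in which storage is most visible. Many lysosomal genes carry near their start an element, GTCACGTG, that is bound by TFEB and related MiT/TFE transcription factors.

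Promoter windows of 250 bases before to 50 after the annotated start were present for 29 of the 34 genes in the RefSeq table (build GRCm38.p6). The letters GTCACGTG, searched on both strands, were found in 7 of these 29 (24.1%), against 2.55% of the 27025 genes with a window and 4.33% of the 11390 such genes that were tested here. The shorter CACGTG, which GTCACGTG contains, was found in 8 of 29 (27.6%), against 8.09% of all genes with a window and 10.9% of those tested. The 30 bases around a GTCACGTG match in each gene are shown because the element is known from lysosomal genes. Capitals mark the element, which reads CACGTGAC where it lies on the other strand. In Cln3 the same stretch also reads CACGTGAC, and this overlapping match is not marked.
Naglu (chr11:101070008-101070037, plus strand): ccaaccttcagGTCACGTGgcccgaggtcg
Sgsh (chr11:119355521-119355550, minus strand): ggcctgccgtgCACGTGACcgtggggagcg
Glb1 (chr9:114401017-114401046, plus strand): gctgcttctgaGTCACGTGgcctacagagg
Cln3 (chr7:126583341-126583370, minus strand): tcacgggtactGTCACGTGacccccaacct
Lgmn (chr12:102439125-102439154, minus strand): atggaatgtctGTCACGTGgtccattttat
Arsa (chr15:89477424-89477453, minus strand): ttcaactcagtGTCACGTGttgtctgctcc
Gla (chrX:134601183-134601212, minus strand): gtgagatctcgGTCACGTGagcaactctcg
Of these 7 genes, Naglu and Sgsh were higher in CCl4 libraries by edgeR with all libraries, and the other 5 did not pass that test. DESeq2 called Glb1 higher (adjusted p = 0.0332), and limma on the deposited FPKM called Gla lower (adjusted p = 0.0456). A window was given for 10 of the 12 genes that rose, and 2 of the 10 held the element, against 5 of 19 among the genes that did not pass. Because the element is known from lysosomal genes, its higher share among these 29 is no separate evidence. A match is a stretch of letters and not a measured binding site.

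The gene that changed most, Psap, has 2 annotated starts with a RefSeq window each, and both carried estimated counts here. They are shown because the 2 main transcripts differ in their first exon. The capitals mark TGAGTCA, the letters bound by AP-1 factors, a motif that was searched only after the sequence had been read.
Psap, 250 bases before the upstream start (chr10:60277378-60277627, plus strand): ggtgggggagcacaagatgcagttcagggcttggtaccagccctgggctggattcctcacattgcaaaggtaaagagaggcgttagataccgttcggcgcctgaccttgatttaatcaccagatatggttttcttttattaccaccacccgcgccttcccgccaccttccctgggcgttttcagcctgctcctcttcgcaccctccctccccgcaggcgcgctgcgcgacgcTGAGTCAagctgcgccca
Psap, 250 bases before the downstream start (chr10:60284211-60284460, plus strand): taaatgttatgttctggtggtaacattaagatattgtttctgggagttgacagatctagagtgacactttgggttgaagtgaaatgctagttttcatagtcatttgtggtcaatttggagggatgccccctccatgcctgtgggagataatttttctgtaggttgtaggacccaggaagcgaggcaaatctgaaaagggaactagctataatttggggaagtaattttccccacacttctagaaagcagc
The upstream window was 58.8% G and C and the downstream window 41.6%. The shorter MiT/TFE element was in neither. The AP-1 letters, searched on both strands, stood in the windows of 4 of the 29 genes (13.8%: Cd68, Glb1, Neu1 and Psap), against 5.95% of all genes with a window and 4.97% of those tested. The Psap window had been read before the search, so its match was fixed in advance and the 13.8% cannot be weighed against these shares. In Glb1 the AP-1 letters overlap the GTCACGTG shown above.

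The libraries held 19489104 to 26196063 estimated counts each. Detected genes numbered 19265 to 23868 in CCl4 libraries and 20487 to 23025 in vehicle libraries, and mitochondrial genes took 0.763 to 1.16% of the counts in CCl4 libraries, against 1.91 to 5.31% in vehicle libraries. Of the 3 genes of the sort gate, Ptprc (CD45) and Adgre1 (F4/80) did not pass the test, with adjusted p = 0.289 and 0.768 by edgeR. Pecam1, which encodes CD31, was lower, at 27.4 ± 2.86 CPM in CCl4 libraries and 73.8 ± 21.3 CPM in vehicle libraries (SD, n = 4 each; log2 fold change -1.43, SE 0.21, adjusted p = 0.00096, edgeR), with no overlap. Other cell markers moved between the groups. The summed level of 12 Kupffer cell markers was 6532 to 12064 CPM (counts scaled to a common library total) in CCl4 libraries and 22263 to 32311 CPM in vehicle libraries, and 10 of the 12 were lower. For 12 markers of monocyte-derived and lipid-associated macrophages the sums were 7715 to 15011 CPM in CCl4 libraries and 512 to 1320 CPM in vehicle libraries, with 8 of 12 higher. Most of the CCl4 sums came from Gpnmb (3915 to 9522 CPM) and Spp1 (1476 to 3351 CPM). The monocyte markers Ccr2 and Cx3cr1 rose by 2.18 and 1.05 on the log2 scale, and 4 of the 12 did not pass. Neutrophil markers summed to 247 to 537 CPM in CCl4 libraries and 106 to 236 CPM in vehicle libraries (7 of 12 higher, with Elane at 0 in all 4 vehicle libraries). Mesothelial and biliary markers summed to 76.8 to 203 CPM in CCl4 libraries and 10.0 to 38.4 CPM in vehicle libraries (7 of 10 higher). Endothelial markers were at 234 to 378 CPM in CCl4 libraries and 640.1 to 1036 CPM in vehicle libraries, and 10 of 13 were lower. The sums overlapped for the other lists. Stellate markers were at 181 to 364 CPM in CCl4 libraries and 131 to 519 CPM in vehicle libraries (3 higher and 2 lower of 11 tested), and hepatocyte markers at 70.4 to 160.7 CPM in CCl4 libraries and 119 to 193 CPM in vehicle libraries (1 lower of 12). Lymphoid markers were at 114 to 223 CPM in CCl4 libraries and 92.8 to 192 CPM in vehicle libraries (1 lower of 11). In sorted bulk RNA, fewer cells of a type and less RNA per cell cannot be told apart, and the part of these shifts in the results on the lysosomal genes was not tested.

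In macrophages of CCl4-treated mice 12 of the 34 lysosomal genes were higher, and none passed the test as lower. The 12 were Psap, Galns, Galc, Gusb, Gm2a, Arsb, Npc1, Naglu, Npc2, Sgsh, Hexa and Fuca1, and their fold changes ran from 1.56 for Fuca1 to 7.89 for Psap. By edgeR's quasi-likelihood test with Benjamini-Hochberg adjustment over all 15212 genes tested (threshold 0.05), the 12 of 34 stand against 8.93% of all genes called higher, and the 0 of 34 against 6.26% called lower. At an unadjusted p under 0.05 there were 18 higher and 1 lower, against 15.4% and 12.9% of all genes tested. DESeq2 called 15 higher and 1 lower (Aga), against 11.8% and 8.11% of the 15185 genes to which it gave an adjusted p. Of all genes called, 58.8% were higher with TMM scaling and 43.1% with library size alone, where 13 of the 34 were higher and 1 (Aga) lower. The number of genes called with library size alone is not given here, so no share stands beside the 13. The median log2 fold change of the 34 was 0.44, against -0.03 over all genes tested, and 30 of the 34 (88.2%) had a fold change above 0, against 47.9% of all genes tested. In 16 of the 34 every CCl4 library lay above every vehicle library, against 13.0% of all genes tested, and in 1, Aga, every CCl4 library lay below, against 9.49%.

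**Figure D1:**
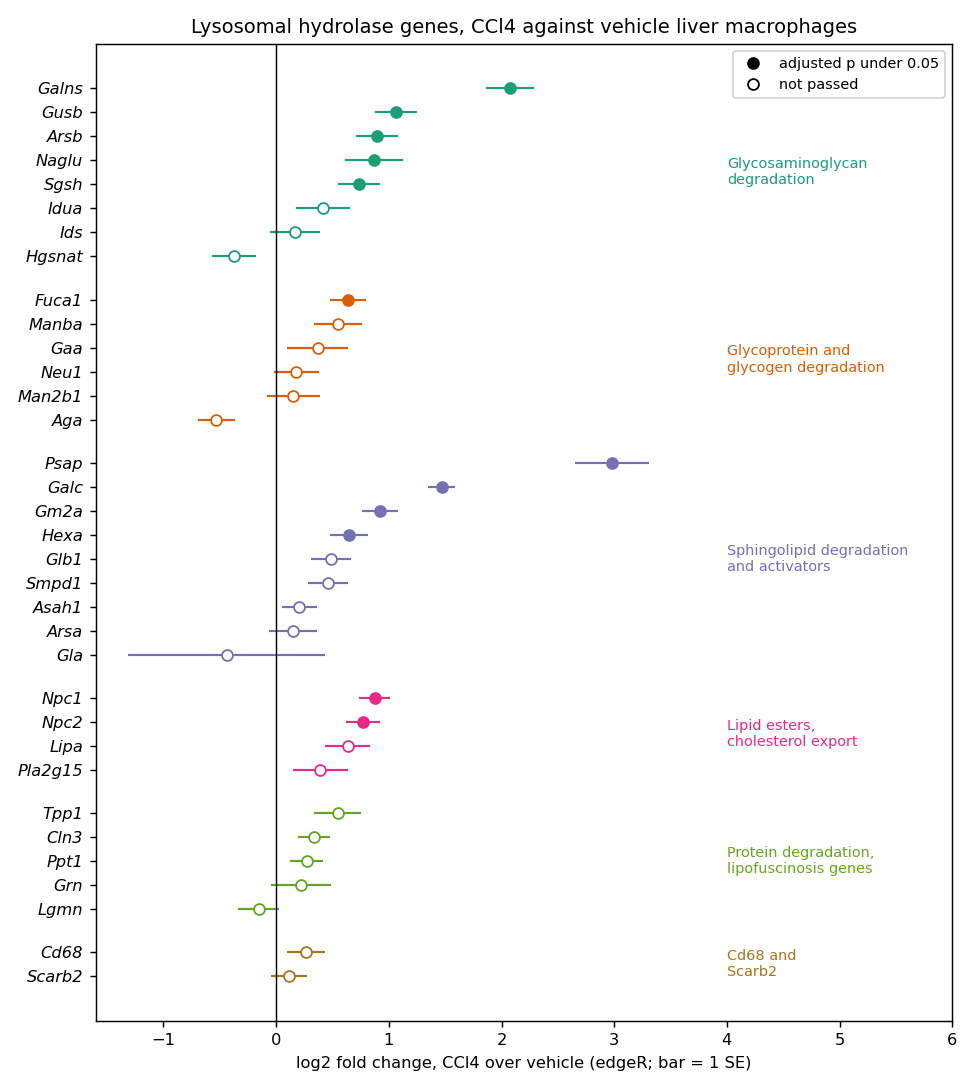
The log2 fold change, CCl4 over vehicle, of each of the 34 genes from edgeR (n = 4 libraries per group) is plotted by role, with bars of 1 standard error (SE), filled points where adjusted p is under 0.05 and open points where it is not. Psap stands apart at 2.98, the glycosaminoglycan and sphingolipid groups hold 9 of the 12 filled points, and no filled point lies below 0.

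The glycosaminoglycan-degrading group strips the sulfated sugar chains of proteoglycans. It had 5 of 8 genes higher by edgeR, against 8.93% of all genes tested, and a median log2 fold change of 0.80. Galns, the sulfatase for keratan sulfate and chondroitin sulfate (chr8:122578242-122611463, minus strand, mm10 with GENCODE M21, as for all genes here), stood at 53.5, 57.6, 72.5 and 48.7 CPM in CCl4 libraries, against 17.1, 9.06, 12.4 and 16.5 CPM in vehicle libraries. The lowest CCl4 library was well above the highest vehicle library, and the log2 fold change was 2.08 (SE 0.21, adjusted p = 0.00011, edgeR). Gusb, β-glucuronidase (chr5:129989011-130003049, minus strand), had 603, 452, 673 and 462 CPM in CCl4 libraries, against 297, 197, 282 and 272 CPM in vehicle libraries. Its groups did not overlap either, with a log2 fold change of 1.06 (SE 0.19, adjusted p = 0.00284, edgeR).

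Arsb, the sulfatase for dermatan sulfate (chr13:93771630-93943016, plus strand), was at 45.0, 50.0, 50.9 and 41.0 CPM in CCl4 libraries and at 26.3, 16.4, 26.5 and 31.1 CPM in vehicle libraries. The groups were separate, and the log2 fold change was 0.90 (SE 0.19, adjusted p = 0.00694, edgeR). Naglu, an enzyme of heparan sulfate breakdown (chr11:101070012-101077672, plus strand), had 141, 158, 229.9 and 141 CPM in CCl4 libraries, against 104, 48.9, 105 and 108 CPM in vehicle libraries. Vehicle library 2 lay far below the other vehicle libraries, the groups did not overlap, and the log2 fold change was 0.87 (SE 0.26, adjusted p = 0.0407, edgeR). Sgsh, which removes sulfate from the nitrogen of heparan sulfate (chr11:119343425-119355536, minus strand), had 63.1, 85.0, 108 and 66.9 CPM in CCl4 libraries, against 53.0, 41.3, 53.9 and 46.1 CPM in vehicle libraries. The gap between the groups was narrower here, and the log2 fold change was 0.73 (SE 0.19, adjusted p = 0.0198, edgeR).

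The other 3 genes of the group did not pass. Idua, α-iduronidase, had a log2 fold change of 0.41 (SE 0.24) and Ids, iduronate sulfatase, one of 0.17 (SE 0.22). Hgsnat, the membrane enzyme that acetylates heparan sulfate from the cytosolic side, had 40.4, 35.8, 58.7 and 51.2 CPM in CCl4 libraries, against 72.6, 43.8, 64.7 and 59.8 CPM in vehicle libraries, with a log2 fold change of -0.37 (SE 0.20, adjusted p = 0.245, edgeR). The groups overlapped for all 3. From counts rebuilt from the length-scaled TPM, Hgsnat had a log2 fold change of -0.71 with adjusted p = 0.0296 by edgeR, so its call depends on how transcript lengths enter. Its leading transcript, Hgsnat-201, took 95.7 ± 1.30% of the gene's counts in CCl4 libraries and 91.2 ± 1.89% in vehicle libraries (SD, n = 4 each), with no overlap. In the fit from length-scaled TPM, Naglu and Sgsh of this group missed the threshold (adjusted p = 0.0517 and 0.079, edgeR).

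In the sphingolipid group 4 of 9 genes were higher by edgeR, against 8.93% of all genes tested, with a median log2 fold change of 0.49. Psap encodes prosaposin, the precursor that is cut into the saposins that present glucosylceramide, galactosylceramide, sulfatide and ceramide to their hydrolases (chr10:60277627-60302597, plus strand). Its levels were 10355, 4602, 12194 and 8847 CPM in CCl4 libraries, against 1114, 675, 1456 and 1319 CPM in vehicle libraries. CCl4 library 2 was the lowest of its group and still about 3 times as high as the highest vehicle library. The log2 fold change was 2.98 (SE 0.33, adjusted p = 0.000158, edgeR), the 106th highest of all genes tested.

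Psap counts fell mainly on 2 transcripts of 14 exons each that share 12 of them and differ in the first exon, which lies at chr10:60277627-60277782 in Psap-202 and at chr10:60284461-60284531 in Psap-203. Psap-202 carried 85.0, 85.3, 86.0 and 88.3% of the gene's counts in CCl4 libraries, against 81.3, 62.0, 80.6 and 82.0% in vehicle libraries. The groups were separate, and vehicle library 2 was far below the other 3. Psap-203 carried 12.9, 11.9, 11.6 and 9.54% in CCl4 libraries, against 16.4, 35.6, 17.3 and 16.0% in vehicle libraries. In CPM taken over unscaled library totals, Psap-202 averaged 7314 ± 2331 in CCl4 libraries and 933 ± 352 in vehicle libraries, a ratio of 7.84, and Psap-203 averaged 969 ± 321 in CCl4 libraries and 233 ± 41.9 in vehicle libraries, a ratio of 4.15 (SD, n = 4 each). Both transcripts were thus higher in every CCl4 library. The error of the split between transcripts is not in the files, so the difference between these ratios was not tested.

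Galc, which removes galactose from galactosylceramide with the help of saposins (chr12:98202294-98259459, minus strand), had the tightest values of all 34 genes in CCl4 libraries. It stood at 47.1, 44.2, 45.3 and 45.9 CPM in CCl4 libraries, against 17.6, 14.9, 17.0 and 16.4 CPM in vehicle libraries, and its coefficient of variation was 2.63% in CCl4 libraries and 7.18% in vehicle libraries. The log2 fold change was 1.47 (SE 0.12, adjusted p = 2.83e-05, edgeR). Gm2a, the GM2 activator that lifts ganglioside GM2 for hexosaminidase A (chr11:55098115-55113029, plus strand), had 765, 609, 768 and 549.7 CPM in CCl4 libraries, against 368, 316, 367 and 371 CPM in vehicle libraries. The groups did not overlap, and its log2 fold change was 0.92 (SE 0.16, adjusted p = 0.00245, edgeR).

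Hexa, the α subunit of the hexosaminidase A that the GM2 activator serves (chr9:59539540-59565109, plus strand), had 1837, 1777, 2116 and 1462 CPM in CCl4 libraries, against 1236, 932, 1272 and 1153 CPM in vehicle libraries. Its rise was smaller, with a log2 fold change of 0.65 (SE 0.17, adjusted p = 0.0255, edgeR), and every CCl4 library was above every vehicle library. Glb1 (β-galactosidase), at 187 ± 24.4 CPM in CCl4 libraries and 133 ± 26.2 CPM in vehicle libraries (SD, n = 4 each), had groups that did not overlap. It missed the threshold by edgeR (adjusted p = 0.0873), while DESeq2 called it higher (adjusted p = 0.0332). Smpd1 (acid sphingomyelinase), Asah1 (acid ceramidase) and Arsa (the sulfatide sulfatase) had log2 fold changes of 0.46, 0.21 and 0.15, with overlapping groups.

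Gla (α-galactosidase A) was the least abundant of the 34 genes per transcript length in both groups. It had 47, 55, 40 and 1 counts in CCl4 libraries, against 55, 103, 6 and 31 counts in vehicle libraries, and its log2 fold change of -0.44 had an SE of 0.87. In the deposited FPKM (fragments scaled by transcript length and library total) it stood at 0.765, 0.0307, 0.14 and 0.37 in CCl4 libraries, against 2.02, 0.494, 1.86 and 1.70 in vehicle libraries. Limma on log2(FPKM + 0.1) called it lower, with a change of -2.11 and adjusted p = 0.0456, although CCl4 library 1 lay above vehicle library 2. The counts behind this call were low, and the libraries did not keep the same order in both tables. The short transcript Gla-202, of 337 bases, took 20.8, 0, 6.90 and 100% of Gla counts in CCl4 libraries. In vehicle libraries it took 32.3, 9.43, 100 and 40.6%. The part of this split in the FPKM call was not tested.

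**Figure D2:**
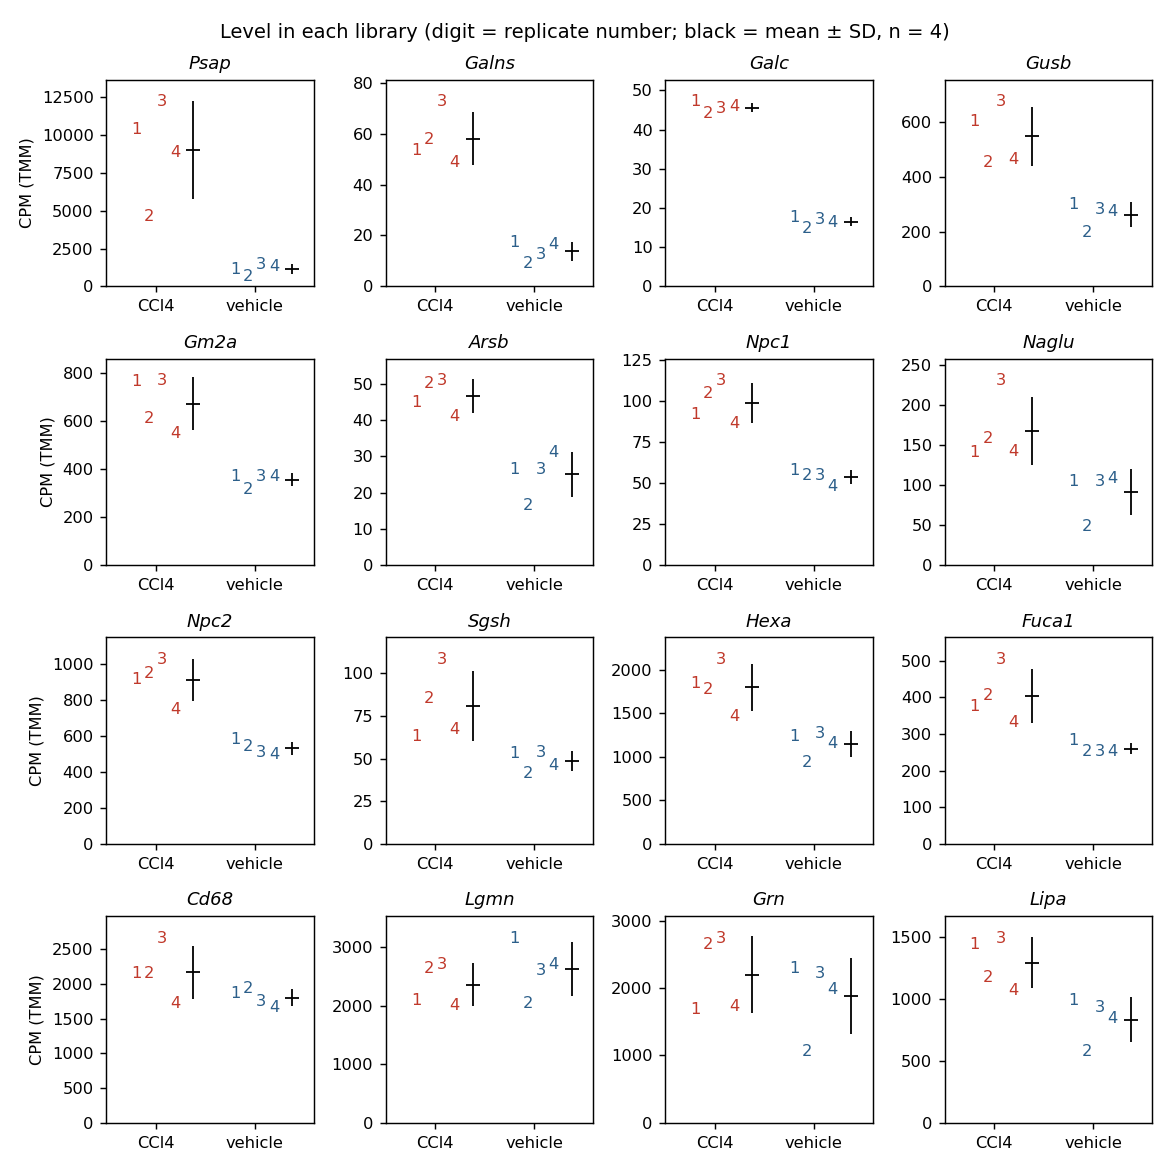
Each panel gives CPM scaled by edgeR's TMM factors (vertical axis, from 0) for 1 gene, with the digits 1 to 4 marking the libraries of the CCl4 and vehicle groups and black bars the mean ± SD (n = 4). In the 12 upper panels, which hold the genes that rose, no vehicle digit reaches the lowest CCl4 digit, while the groups overlap for Cd68, Lgmn and Grn.

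Of the 4 genes for lipid esters and cholesterol export, 2 were higher by edgeR, against 8.93% of all genes tested. Their median log2 fold change was 0.70. Npc1 and Npc2, the membrane and the soluble protein that together pass cholesterol out of the lysosome, rose by similar amounts. Npc1 had 91.7, 105, 112 and 86.2 CPM in CCl4 libraries, against 57.8, 54.4, 54.9 and 48.1 CPM in vehicle libraries, a log2 fold change of 0.88 (SE 0.14, adjusted p = 0.00127, edgeR). Npc2 (chr12:84754562-84773152, minus strand) had 915, 946, 1023 and 748 CPM in CCl4 libraries, against 578, 543, 507 and 496 CPM in vehicle libraries, a log2 fold change of 0.77 (SE 0.15, adjusted p = 0.00502, edgeR). Neither gene's groups overlapped. A retained-intron transcript, Npc2-203, took 4.14 ± 1.10% of Npc2 counts in CCl4 libraries and 7.43 ± 2.19% in vehicle libraries (SD, n = 4 each).

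Lipa, the acid lipase that frees the cholesterol and fatty acids of internalised lipoproteins (chr19:34492318-34527474, minus strand), had 1438, 1176, 1487 and 1069 CPM in CCl4 libraries, against 986, 575, 933 and 838 CPM in vehicle libraries. The groups were separate, but the log2 fold change of 0.63 (SE 0.20) fell just short of the threshold, with adjusted p = 0.0524 by edgeR. Without CCl4 library 4 or vehicle library 1 it passed, with adjusted p = 0.0416 and 0.0421 by edgeR. DESeq2 called Lipa higher (adjusted p = 0.00838), while limma on log2(FPKM + 0.1) did not (adjusted p = 0.185). Pla2g15, a lysosomal phospholipase, had a log2 fold change of 0.39 (SE 0.24) and overlapping groups.

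The glycoprotein and glycogen group had 1 of 6 genes higher by edgeR, against 8.93% of all genes tested, and a median log2 fold change of 0.27. Fuca1, α-fucosidase (chr4:135920735-135940311, plus strand), had 375, 405, 503 and 332 CPM in CCl4 libraries, against 282, 253, 251 and 251 CPM in vehicle libraries. Every CCl4 library was higher, with a log2 fold change of 0.64 (SE 0.16, adjusted p = 0.0174, edgeR). Manba (β-mannosidase) had separate groups, at 66.5 ± 2.27 CPM in CCl4 libraries and 45.4 ± 14.0 CPM in vehicle libraries (SD, n = 4 each), and adjusted p = 0.111 (edgeR). Gaa (acid α-glucosidase, which digests glycogen), Neu1 (sialidase) and Man2b1 (α-mannosidase) had log2 fold changes of 0.37, 0.18 and 0.15 and overlapping groups.

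Aga, which cuts the bond between asparagine and its sugar chain (chr8:53511727-53523421, plus strand), was the one gene of the 34 with every CCl4 library below every vehicle library. It had 53.7, 66.2, 54.1 and 42.8 CPM in CCl4 libraries, against 74.2, 95.3, 72.9 and 70.6 CPM in vehicle libraries. Its log2 fold change was -0.53 (SE 0.16), with adjusted p = 0.0501 by edgeR, on the edge of the threshold. Without CCl4 library 2 the adjusted p was 0.0348, and Aga was the only one of the 34 that DESeq2 called lower.

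None of the 5 genes of protein degradation and neuronal ceroid lipofuscinosis passed by edgeR, with 2 higher and 0 lower at an unadjusted p under 0.05 (15.4% and 12.9% of all genes) and 1 higher by DESeq2 (11.8% of all genes), and their median log2 fold change was 0.27. Lgmn, the asparaginyl endopeptidase legumain (chr12:102394084-102439813, minus strand), had 2091, 2642, 2714 and 2001 CPM in CCl4 libraries, against 3154, 2048, 2609.6 and 2708 CPM in vehicle libraries. Grn, progranulin (chr11:102430315-102437048, plus strand), had 1681, 2637, 2735 and 1719.7 CPM in CCl4 libraries, against 2282, 1054, 2213 and 1979 CPM in vehicle libraries. Both sets of groups overlapped, with log2 fold changes of -0.15 (SE 0.18) for Lgmn and 0.22 (SE 0.26) for Grn. Tpp1, a tripeptidyl peptidase, had separate groups at 530.3 ± 84.9 CPM in CCl4 libraries and 363 ± 90.1 CPM in vehicle libraries (SD, n = 4 each). Its log2 fold change of 0.55 missed the threshold by edgeR (adjusted p = 0.1055), while DESeq2 called it higher (adjusted p = 0.0432). Ppt1 (palmitoyl-protein thioesterase) and the membrane protein gene Cln3 had log2 fold changes of 0.27 and 0.33.

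Cd68 and Scarb2, membrane proteins outside the groups above, failed the test by edgeR and by DESeq2, and neither reached an unadjusted p under 0.05. Cd68, the macrosialin used as a macrophage marker (chr11:69664213-69666153, minus strand), had 2147, 2152, 2652 and 1716 CPM in CCl4 libraries, against 1862, 1936, 1745 and 1659 CPM in vehicle libraries. CCl4 library 4 lay within the vehicle range, and the log2 fold change was 0.27 (SE 0.17, adjusted p = 0.338, edgeR). Scarb2, which carries glucocerebrosidase to the lysosome, had a log2 fold change of 0.11 (SE 0.16).

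Levels of different genes were compared as TPM, which divides the counts by transcript length before scaling. Psap was the highest of the 34 genes in CCl4 libraries at 4466 ± 1438 TPM, rank 17 of all genes, and the fifth in vehicle libraries at 592 ± 204 TPM, rank 179 (SD, n = 4 each). Cd68 followed with 2672 ± 221 TPM in CCl4 libraries and led the vehicle libraries with 2288 ± 24.4 TPM. Its groups were separate in TPM, at 2430 to 2953 in CCl4 libraries and 2265 to 2320 in vehicle libraries, but overlapped in CPM and FPKM. Lgmn came next with 1647 ± 185 TPM in CCl4 libraries and 1885 ± 350.4 TPM in vehicle libraries. Grn had 1300.1 ± 274 TPM in CCl4 libraries and 1162 ± 368 TPM in vehicle libraries, and Hexa 1224 ± 64.5 TPM in CCl4 libraries and 807 ± 139 TPM in vehicle libraries. Grn and Hexa did not differ beyond their spread in CCl4 libraries. At the low end Gla had 1.97 ± 1.86 TPM in CCl4 libraries and 5.14 ± 1.96 TPM in vehicle libraries. Of the 12 genes that rose in counts, all 12 also had TPM groups that did not overlap. TPM and counts come from the same estimates, so this is not separate evidence.

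**Figure D3:**
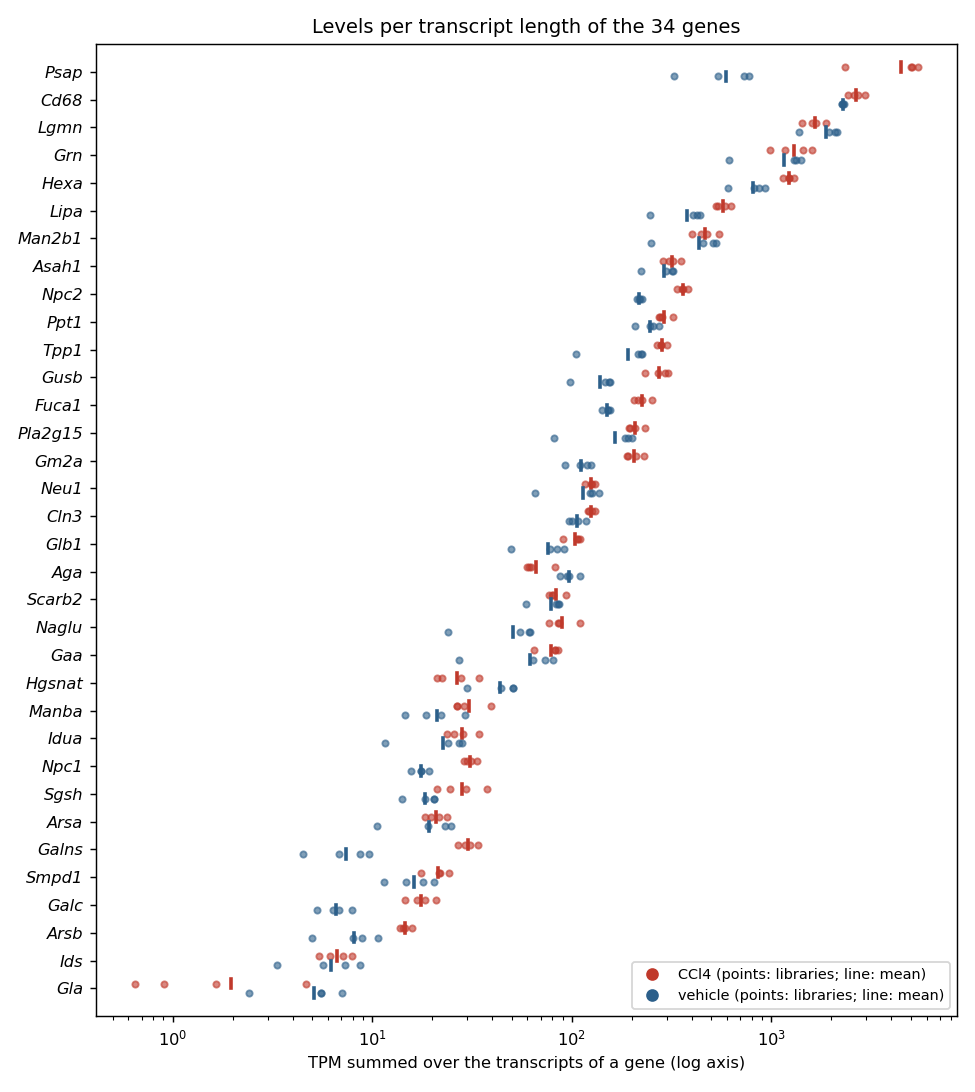
TPM summed over each gene's transcripts (horizontal log axis) is plotted for the 34 genes in order of mean level, with 1 point per library (4 CCl4 in red, 4 vehicle in blue) and a line at each group mean. The genes span from 1.97 TPM for Gla to 4466 TPM for Psap in CCl4 means, and the wide gap between the colours at Psap is seen at no other abundant gene.

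Summed over the 34 genes, TPM came to 15347, 13837, 17156 and 15406 in CCl4 libraries, against 10354, 7419.5, 10837 and 10733 in vehicle libraries, or 1.55 ± 0.136% of all TPM in CCl4 libraries and 0.985 ± 0.163% in vehicle libraries (SD, n = 4 each). Psap made up much of the gap. Its share of the sum was 32.9, 16.8, 31.8 and 32.7% in CCl4 libraries, against 5.23, 4.38, 7.14 and 6.78% in vehicle libraries. Without Psap the sums were 10971 ± 737 in CCl4 libraries and 9244 ± 1437 in vehicle libraries, and the vehicle range of 7094 to 10063 lay just below the CCl4 range of 10298 to 11701. By role, the glycosaminoglycan group summed to 498 ± 48.5 TPM in CCl4 libraries and 296 ± 71.7 TPM in vehicle libraries. The protein group summed to 3643 ± 476 TPM in CCl4 libraries and 3590.0 ± 796 TPM in vehicle libraries.

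**Figure D4:**
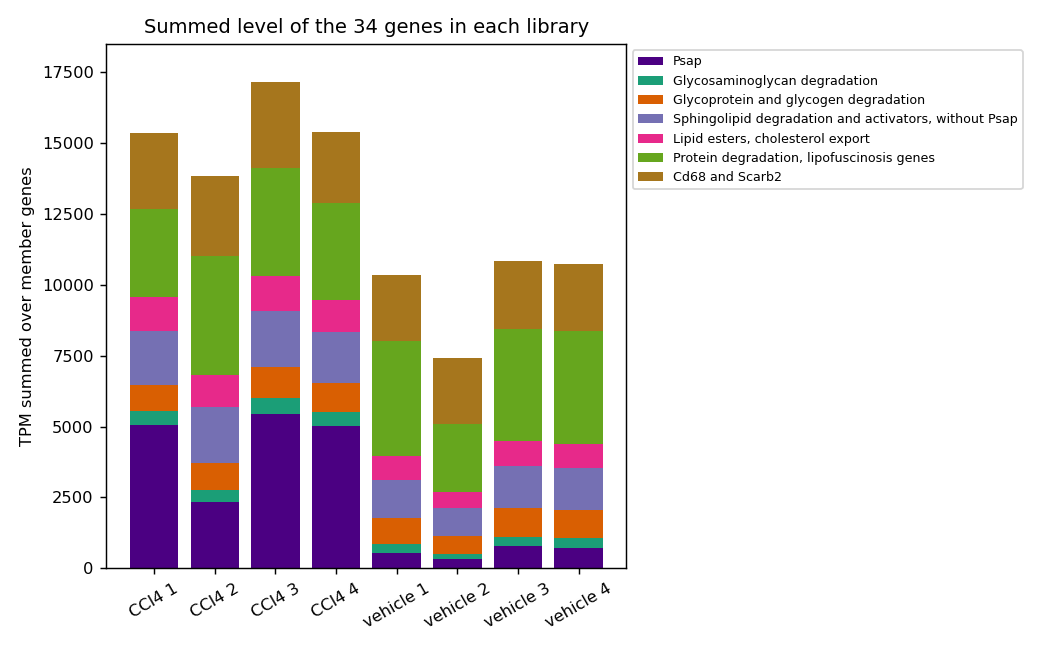
Stacked bars give the summed TPM of the 34 genes in each library (vertical axis, from 0), divided into Psap and the role groups. The 4 CCl4 bars reach 13837 to 17156 and the 4 vehicle bars 7419.5 to 10837, and the Psap segment at the base differs most between them.

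Some libraries sat apart for these genes as a set. Vehicle library 2 was the lowest vehicle library for 27 of the 34, with a median log2 ratio of -0.55 to the mean of the other 3. CCl4 library 3 was the highest of its group for 26 genes and CCl4 library 4 the lowest for 21. Without CCl4 library 4 and vehicle library 2 together, 15 of the 34 were higher and 0 lower by edgeR, with all of the 12 among the 15. The share of all genes called in that fit is not given here, so the 15 cannot be weighed against it. The 12 did not depend on single libraries to the same degree. Psap, Galns, Galc, Gusb, Gm2a, Arsb, Npc1 and Npc2 passed in all 8 fits that left out 1 library each. Sgsh missed the threshold without CCl4 library 2 (adjusted p = 0.0509, edgeR) or vehicle library 4 (adjusted p = 0.063, edgeR). Fuca1 missed it without vehicle library 3 or 4 (adjusted p = 0.0621 and 0.061, edgeR). Hexa missed it without CCl4 library 2 or 3 or vehicle library 3 or 4, with adjusted p up to 0.0729 by edgeR. Naglu passed only without CCl4 library 4 or vehicle library 2 and otherwise missed the threshold, without CCl4 library 1, 2 or 3 or vehicle library 1, 3 or 4, with adjusted p up to 0.1055 by edgeR.

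The deposited FPKM table gave fewer calls. Limma on log2(FPKM + 0.1) called 7 of the 34 higher, against 4.8% of the 12379 genes tested there, and 1 lower (Gla), against 4.84%. The 7 were Psap, Galns, Galc, Gusb, Gm2a, Npc1 and Npc2, all of them among the 12. Psap had 543.9, 284, 657 and 449 FPKM in CCl4 libraries, against 67.9, 35.6, 90.04 and 80.6 FPKM in vehicle libraries, a ratio of means of 7.05. In 33 of the 34 genes the ratio of group means had the same direction in FPKM as in counts, and 10 of the 12 also had FPKM groups that did not overlap.

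**Figure D5:**
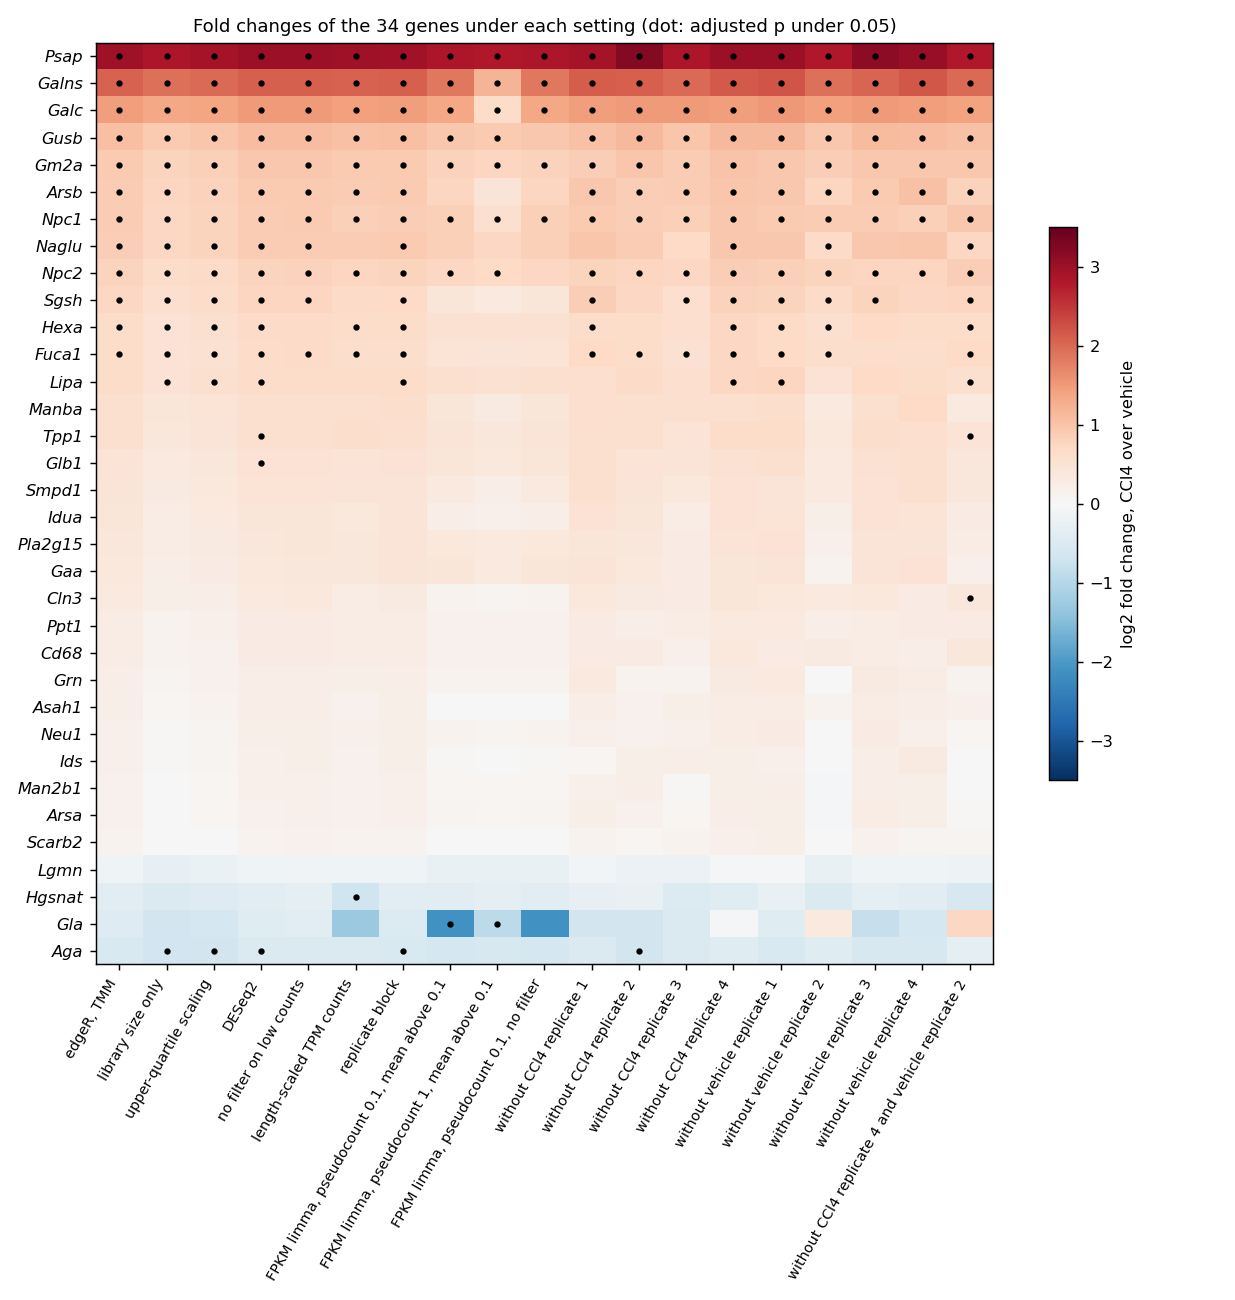
Colours give the log2 fold change, CCl4 over vehicle, of the 34 genes (rows) under the edgeR fit with TMM scaling and 18 other settings (columns), and a dot marks an adjusted p under 0.05. The dots run unbroken for Psap, Galns, Galc, Gm2a and Npc1, and on the blue side they appear for Aga, Hgsnat and Gla alone.

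The neighbouring parts of the lysosomal pathway moved in part with these genes. Of 31 other lysosomal hydrolases, 6 were higher and 4 lower by edgeR, against 8.93% and 6.26% of all genes tested, with a median log2 fold change of 0.28. At an unadjusted p under 0.05 the counts were 12 higher and 5 lower, against 15.4% and 12.9% of all genes tested. DESeq2 called 12 higher and 4 lower, against 11.8% and 8.11% of all genes. The lower ones were led by Plbd1, a phospholipase B-like protein, with 135 ± 47.1 CPM in CCl4 libraries and 386 ± 70.4 CPM in vehicle libraries (log2 fold change -1.52, SE 0.24, adjusted p = 0.00137, edgeR). Smpdl3b, related to acid sphingomyelinase, and the carboxypeptidase gene Cpq fell by 0.88 and 0.79 on the log2 scale.

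Among 14 genes of mannose-6-phosphate tagging, enzyme maturation and sorting, 3 were higher and 0 lower by edgeR, with 5 higher and 1 lower both at an unadjusted p under 0.05 and by DESeq2. The shares of all genes were 8.93% and 6.26% by edgeR, 15.4% and 12.9% unadjusted, and 11.8% and 8.11% by DESeq2. The sorting receptor Sort1, which also carries prosaposin, stood at 28.7 ± 2.62 CPM in CCl4 libraries and 5.44 ± 0.690 CPM in vehicle libraries, with a log2 fold change of 2.40 (SE 0.16, adjusted p = 7.58e-06, edgeR). The mannose-6-phosphate receptor Igf2r stood at 48.5 ± 9.71 CPM in CCl4 libraries and 9.48 ± 1.65 CPM in vehicle libraries, with 2.35 (SE 0.19, adjusted p = 2.28e-05, edgeR). Gnptab, the enzyme that starts the tag, rose by 1.40 (SE 0.24, adjusted p = 0.00227, edgeR). SDs are over 4 libraries per group.

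Of 19 lysosomal membrane proteins and exporters, 8 were higher and 0 lower by edgeR (12 and 0 at an unadjusted p under 0.05, 11 and 0 by DESeq2, set against the same shares of all genes), with a median log2 fold change of 0.54. Gpnmb, a transmembrane glycoprotein of phagocytes that also counts among the lipid-associated macrophage markers, was highest with a log2 fold change of 8.28 (SE 0.75, adjusted p = 4.63e-05, edgeR). The tetraspanin Cd63 had 1497 ± 339 CPM in CCl4 libraries and 246 ± 80.0 CPM in vehicle libraries, and Mfsd12, needed for cysteine import into lysosomes, 135 ± 49.5 CPM in CCl4 libraries and 25.2 ± 6.44 CPM in vehicle libraries (SD, n = 4 each). Laptm5 rose by 0.71 (SE 0.21, adjusted p = 0.0399, edgeR).

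The MiT/TFE factor genes did not move together. Mitf was higher, at 40.7 ± 10.0 CPM in CCl4 libraries and 22.1 ± 3.71 CPM in vehicle libraries (log2 fold change 0.88, SE 0.20, adjusted p = 0.0124, edgeR), with CCl4 library 2 inside the vehicle range. Tfec was lower, at 24.0 ± 2.64 CPM in CCl4 libraries and 41.3 ± 3.08 CPM in vehicle libraries (log2 fold change -0.78, SE 0.13, adjusted p = 0.00207, edgeR). Tfeb and Tfe3 had log2 fold changes of 0.23 and 0.19 with adjusted p = 0.386 and 0.645 by edgeR. These values are mRNA levels, and the activity of the factors was not measured.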

How the data were processed

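Macrophage RNA of 8 libraries (4 CCl4, 4 vehicle) was amplified with SMART-Seq HT and sequenced, per the labels' protocols. The authors' transcript files hold estimated counts, TPM and transcript lengths, and the submitters' processing notes name kallisto, edgeR, limma and mm10 without versions. The authors also deposited a gene table of FPKM, with sums of 81157 to 113869 per library. The labels do not state whether counting used strand. Of 117494 transcripts, 116405 matched GENCODE M21 by ID; the others, with 0.29 to 0.313% of the counts, and 1 unnamed FPKM line, with 0.0156 to 0.0369%, were left out.

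Estimated counts were summed to 35906 genes and rounded. edgeR 4.0.16 (R 4.3.3) fitted group alone, with TMM scaling and filterByExpr (minimum count 10, minimum total 15), by quasi-likelihood F test, two-sided, with Benjamini-Hochberg adjustment over 15212 genes. CPM values use the TMM factors. DESeq2 1.42.0 on the counts and limma 3.58.1 on log2(FPKM + 0.1 or 1), for genes with a mean FPKM above 0.1, were alternatives; fold changes from FPKM are on that log scale, which understates changes of low genes. TPM and transcript shares are descriptions with no test. No 2 libraries of the same group agreed within sampling noise. Counts were also simulated with 200 changed genes among 15069 and the same dispersion of 0.1 for every gene. There edgeR recovered 25% of log2 changes of 1 and 99% of log2 changes of 2, and 5.34% of its calls were false. In the real libraries the spread differed between genes and more genes were called, so these rates need not hold there. Some members with log2 changes below 1 passed, and others of that size may have been missed.

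The members, their role groups and the comparison and marker lists were chosen with earlier results of these data known. Named genes are the 34 members, with values in every library for those past the threshold and the 6 of highest TPM, and up to 4 called genes of each comparison list; 1 gene that the rule picks is not reported here. Values per library for Hgsnat, Aga and Gla were added after their values were seen. Exons of 11 members overlap exons of other genes, among them Sgsh (Card14), Galc, Npc1, Arsb and Hexa of those that rose; reads there could be split between genes.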

Additional observations from a re-analysis of the deposited data

Results flagged for a closer look

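In 72 groups of 4 libraries, 13 held 1 library whose gap to its neighbour was above Dixon's critical share of the group's range; chance gives about 1 in 20. Vehicle library 2 accounts for 9 of the 13. It was low for Idua at 29.5 CPM, against 57.9 to 63.1 CPM in the other vehicle libraries, for Naglu at 48.9 CPM (104 to 108), for Gaa at 71.3 CPM (175 to 194), for Man2b1 at 649 CPM (1233 to 1301), for Glb1 at 94.0 CPM (144 to 149), for Gm2a at 316 CPM (367 to 371) and for Pla2g15 at 174 CPM (369 to 387). Its share of TPM on the 34 genes was 0.743%, against 1.04 to 1.09% in the other vehicle libraries. For Aga it was high instead, at 95.3 CPM against 70.6 to 74.2 CPM.

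Vehicle library 1 was high for Fuca1 at 282 CPM, against 251 to 253 CPM in the other vehicle libraries. CCl4 library 1 was high for Ids at 32.2 CPM, against 24.1 to 25.0 CPM in the other CCl4 libraries. CCl4 library 4 was low for Gla at 0.0476 CPM, from 1 count, against 1.81 to 2.17 CPM. In CCl4 library 2, Psap made up 16.8% of the TPM of the 34 genes, against 31.8 to 32.9% in the other CCl4 libraries.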

How the results depend on the processing

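Of 612 comparisons of a single gene with an alternative setting, 553 kept direction and side of the threshold, 34 lost the call, 19 gained one and 6 changed sign. The sign changes were Scarb2 (log2 fold change -0.019) with library size alone; Man2b1 (-0.034), Arsa (-0.029), Ids (-0.017) and Gla (0.34) without vehicle library 2, where leaving out other libraries gave up to 0.24, 0.26 and 0.32 for the first 3 and down to -0.80 for Gla; and Gla (0.74) without CCl4 library 4 and vehicle library 2. Limma on FPKM called 1193 genes in all with a pseudocount of 0.1, 1130 with 1 and 694 with no filter, against 2311 by edgeR, and 7, 7 and 5 of the 34 as higher. The count of members called lower was 1 under library size alone, upper-quartile scaling and DESeq2 (Aga each time), 1 (Hgsnat) from length-scaled TPM, and 1 (Gla) from FPKM with either pseudocount. From length-scaled TPM, Naglu and Sgsh lost their calls as higher. With no filter on low counts, Hexa lost its call (adjusted p = 0.0555, edgeR). Leaving out 1 library at a time gave 8 to 13 members higher, 0 to 1 lower, a members' median of 0.33 to 0.52 and 1582 to 2666 genes called. Scaling moved the balance of all genes: the called genes were 58.8% higher with TMM, 43.1% with library size alone and 47.5% with upper quartiles, where the median of all genes shifted to -0.155 and -0.119, while 13 members were higher under each. The numbers of genes called with library size alone and upper quartiles are not given here, so no shares stand beside the 13. With the replicate number as a block, 2110 genes, 13 members higher (Lipa added) and 1 lower (Aga) were called; libraries of the same number did not deviate together (correlations 0.098, -0.188, 0.061 and -0.193), so the numbers were not taken as pairs. The depth leaves Gla, with 1 to 103 counts, unresolved, and the split between transcripts has no known error.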

Other observations

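Transcripts annotated as retaining an intron carried a large share of the counts of some of these genes in both groups. Arsa-201 held 56.3 ± 6.47% of Arsa counts in CCl4 libraries and 51.6 ± 7.76% in vehicle libraries, and Neu1-202 held 34.4 ± 5.89% of Neu1 counts in CCl4 libraries and 34.3 ± 5.05% in vehicle libraries (SD, n = 4 each). Asah1-203 held 19.9 ± 1.57% of Asah1 counts in CCl4 libraries and 19.4 ± 2.51% in vehicle libraries. The groups overlapped for all 3.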
